A study of Mus musculus with 10 samples.

Results

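A set of 40 genes of the interferon response and of antigen presentation by MHC class I molecules were followed across sorted states of mouse embryonic stem (ES) cells. The members were taken by gene symbol from a list of 40 that was chosen with earlier results of these data known. Of them, 38 had a row among the 32361 rows of the expression table. Eif2ak2 and Irgm2 were not analysed here. The cells were of the E14Tg2a.4 line, and fractions were isolated by FACS, flow sorting on the reporters' fluorescence, before RNA was sequenced. A line with knock-in reporters at both Esrrb and Tbx3 gave cells with neither reporter on (double-negative), with Esrrb alone on (single-positive) and with both on (double-positive). In another line, part of the Zscan4c promoter drives a reporter inserted by piggyBac, and its cells were sorted as Zscan4-negative and Zscan4-positive. Because that reporter is a promoter fragment and not a knock-in, it reads the activity of the fragment. The labels name 2 libraries per fraction, and the series' design text says that replicates were taken on different days, but the deposited values hold a single FPKM figure (fragments scaled by transcript length and library size) for each gene and fraction. There are thus no replicates behind any difference below, no SD or p-value is given, and depth is unknown.

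Interferons are secreted proteins that bind cell surface receptors, activate Janus kinases and STAT factors, and induce many target genes. Sensors of foreign RNA and DNA start this loop through interferon regulatory factors, and the induced genes include antiviral effectors and the machinery that loads peptides onto MHC class I molecules. Pluripotent cells are known for a weak interferon response, while many differentiated cell types hold the pathway ready.

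Levels are given in FPKM in the order double-negative, single-positive, double-positive, Zscan4-negative and Zscan4-positive unless stated otherwise. A difference is that of log2(FPKM + 1) between 2 fractions, and genes count as called, higher or lower, from a size of 1 on, which is 2-fold on that scale. The scale understates differences of genes at low levels. Only rows that reached 1 FPKM in some fraction were compared, which were 13595 rows and 33 of the 38 members. Oasl1, Ifit1, Ifit3, Rsad2 and Usp18 did not reach that level.

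Markers of other cell types bear on these values and come first. Summed over 10 ES cell markers such as Pou5f1, Sox2 and Nanog, levels were 4680, 5860, 7370, 7190 and 6960 FPKM, so the labelled cell type was present in all 5 fractions. Summed over 13 fibroblast markers, levels were 1950, 1380, 30.4, 23.9 and 33.1 FPKM. Over 13 T cell markers they were 604, 440, 41.2, 27.3 and 30.1 FPKM, led by Gzma and Cd3g at 223 and 153 FPKM in double-negative cells. Thy1 counts in both the fibroblast and the T cell list. Of these lists, 10 of 10 compared fibroblast markers and 9 of 11 compared T cell markers were lower at the double-positive end of the Esrrb-Tbx3 line than at the double-negative end. Dcn and Lum, defining fibroblast genes, stayed at or below 0.217 and 0.144 FPKM in every fraction. Of the T cell markers, Cd4, Cd5 and Cd8a stayed at or below 0.835, 0.803 and 1.87 FPKM, and Cd2 and Zap70 were called in no comparison. Sums were 36.4, 29.4, 19.7, 13.8 and 17.9 FPKM for 9 macrophage markers, led by Ptprc at 23.9 and 16.3 FPKM in the first 2 fractions. Cd68 ran the other way, at 10.9, 12.0, 18.4, 12.3 and 16.1 FPKM, and the remaining macrophage markers were at or below 0.645 FPKM in every fraction. Sums ranged from 1.46 to 3.37 FPKM for 5 B cell, from 2.97 to 7.47 FPKM for 6 antigen-presenting cell and from 19.0 to 35.4 FPKM for 4 endothelial markers. The sum over 9 markers of the 2-cell-like state was 572 FPKM in Zscan4-positive cells and at most 4.42 FPKM elsewhere. Hprt, a gene that E14Tg2a cells are known to lack in working form, was at 28.0, 19.3, 0.954, 0.717 and 0.349 FPKM. Its level in the first 2 columns differs from what the label of the line would give, and the cause was not tested. In the fibroblast and T cell sums and in Hprt, the double-negative and single-positive columns thus stand apart from the other 3. The Zscan4 sort and the comparison of the reporter lines rest on neither of these 2 columns. The part of these other transcripts in the members' differences was not tested.

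**Figure D1:**
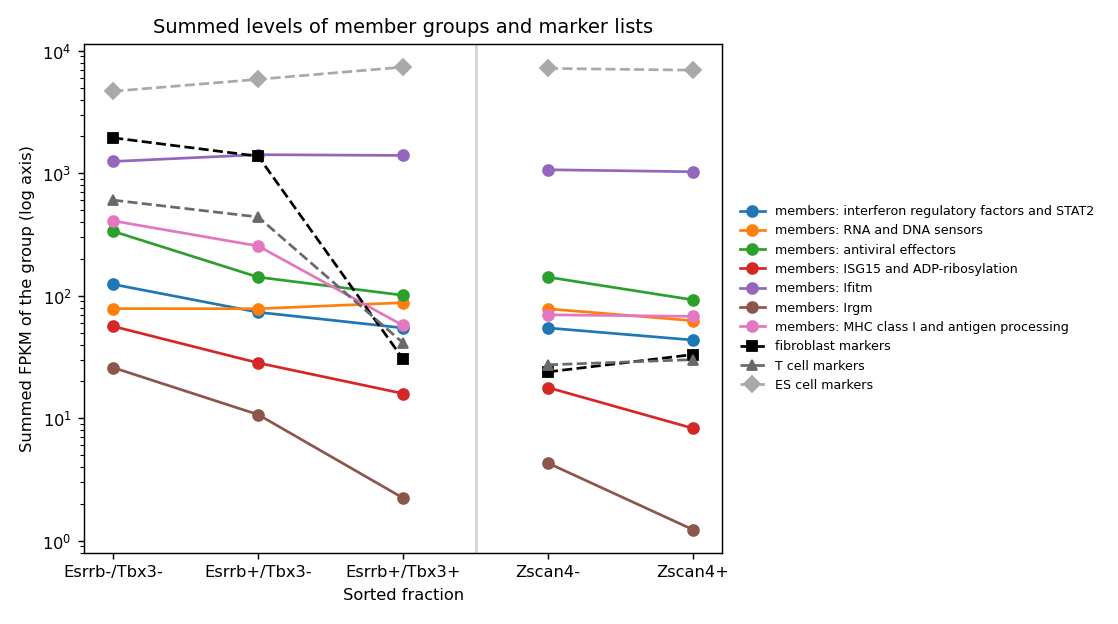
Summed FPKM (log axis) of each member group and of 3 marker lists in the 5 sorted fractions; lines join fractions of the same reporter line. The fibroblast sum is 1950 and 1380 FPKM in the first 2 fractions and 23.9 to 33.1 in the others, the MHC class I group goes from 409 and 255 to 57.2 to 69.9 FPKM, and the Ifitm group stays between 1030 and 1420.

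Most members had their highest level in double-negative cells. This was so for 30 of the 38, and for 26 of the 33 compared members, against 35.9% of all compared rows. In the Esrrb step, single-positive minus double-negative cells, 8 of 33 members were lower, where 1.43% of all compared rows were, and 0 were higher, where 1.82% were. In bulk samples like these, fewer cells of a type and less RNA per cell cannot be told apart. In the Tbx3 step, double-positive minus single-positive cells, 10 of 33 were lower (6.94% of all rows) and 0 higher (0.346%). Between the ends, double-positive minus double-negative cells, 20 of 33 were lower (12.2% of all rows) and 0 higher (3.81%). In the Zscan4 sort, Zscan4-positive minus Zscan4-negative cells, 5 of 33 were lower (0.875% of all rows) and 0 higher (3.46%). Between the lines, Zscan4-negative minus double-positive cells, 1 of 33 was higher (0.816% of all rows) and 0 lower (0.743%). Median differences of the members were -0.48, -0.62, -1.44, -0.10 and 0.02 in this order, and those of all compared rows lay between -0.02 and 0.01. Comparisons that use the same fraction are not independent of each other. Since the members were chosen with earlier results of these data known, an excess over the share of all rows can follow from that choice. The comparison of the ends also uses values that enter the member rule given below.

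**Figure D2:**
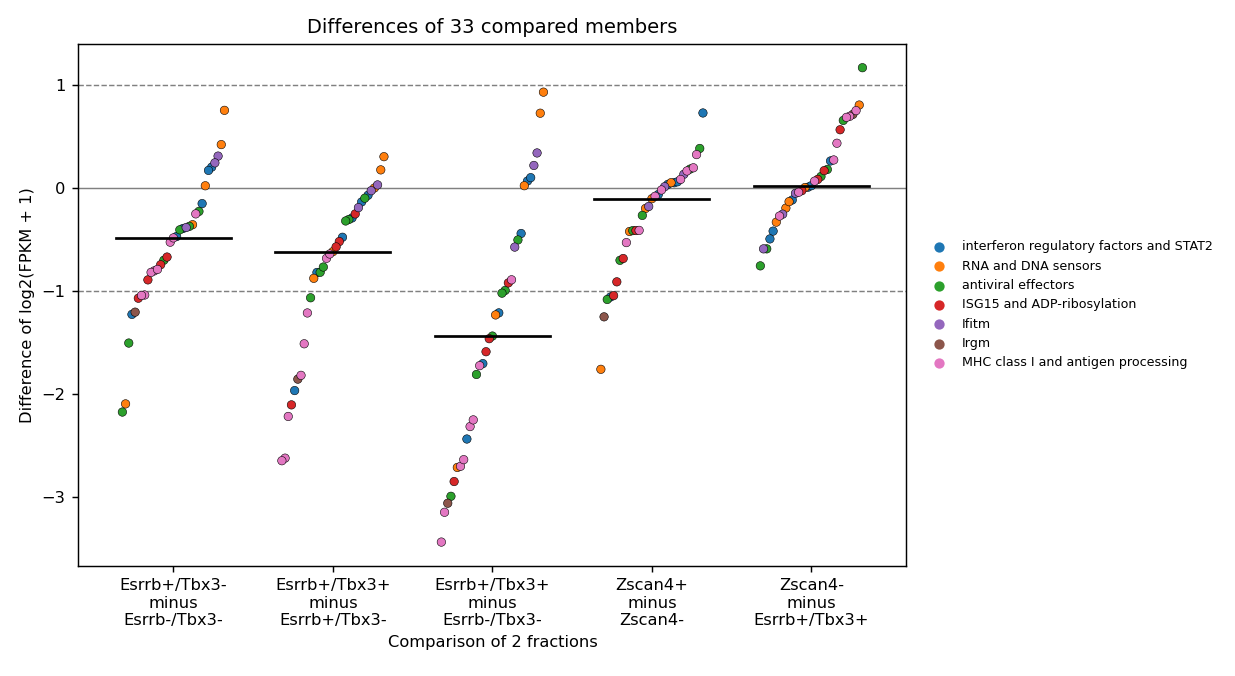
Differences of log2(FPKM + 1) for the 33 compared members in 5 comparisons of 2 fractions, each point 1 gene coloured by role, with the median as a bar and dashed lines at -1 and 1. Points lie mostly below 0 in the first 3 comparisons, with medians of -0.48, -0.62 and -1.44, and around 0 in the last 2.

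The member rule marks genes whose double-positive, Zscan4-negative and Zscan4-positive levels are all at most 0.1 of the double-negative level. The 5 members that met it were Irf2, Ifih1, Ifit3, Usp18 and H2-T23. Among all rows above 0 in double-negative cells 5.56% met it, and 3.69% of compared rows did, and nothing is read from this since the rule uses these values. Just inside was H2-T23, whose highest level among the 3 fractions was 0.0767 of the double-negative one, followed by Usp18 at 0.0742. Just outside were Irf7 at 0.112, B2m at 0.113, Psmb9 at 0.113 and Isg15 at 0.116. Ifit3 and Usp18 were at 0.501 and 0.917 FPKM in double-negative cells, so their ratios rest on levels near 0.

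Promoter sequences of 33 of the 38 members were matched by symbol in RefSeq (GRCm38.p6, the assembly of mm10), each 250 bases before to 50 bases after a start site. The members were listed as interferon response and MHC class I genes. An excess of letters known from such genes can thus follow from the list itself and is no result of these expression values. The core of the interferon-stimulated response element, found before many interferon-induced genes, was searched on both strands as GAAA, any 2 bases and GAAA again. It was found for 14 of the 33 genes (42.4%), against 3.99% of 27025 genes in RefSeq. The gamma-activated site, bound by STAT dimers and searched as TTC, any 3 bases and GAA, which reads the same on both strands, was found for 8 of 33 (24.2%), against 9.55%. A match is a run of letters and not a measured site. Shown are the 250 bases before the start site, 5' to 3' on the gene's strand, for 6 members that stand for the patterns described below, with matches in capitals. Irgm1 and Bst2 were lower in the Esrrb step and carry the response element core, as does Isg15, Irf1 carries a gamma-activated site, B2m was lower in the Tbx3 step, and Ifitm2 carries the core although its level hardly moved.
Irgm1, chr11:48871421-48871670, minus strand: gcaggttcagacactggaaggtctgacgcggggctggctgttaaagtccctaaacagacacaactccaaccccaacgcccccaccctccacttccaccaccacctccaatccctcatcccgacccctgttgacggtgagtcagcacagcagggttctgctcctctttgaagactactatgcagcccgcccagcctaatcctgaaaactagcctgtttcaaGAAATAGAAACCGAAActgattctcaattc
Bst2, chr8:71537473-71537722, minus strand: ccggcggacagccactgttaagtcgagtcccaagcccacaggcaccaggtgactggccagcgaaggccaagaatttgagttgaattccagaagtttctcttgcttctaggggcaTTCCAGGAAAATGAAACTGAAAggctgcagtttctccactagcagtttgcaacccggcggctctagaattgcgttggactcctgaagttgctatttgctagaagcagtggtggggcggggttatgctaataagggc
Irf1, chr11:53769764-53770013, plus strand: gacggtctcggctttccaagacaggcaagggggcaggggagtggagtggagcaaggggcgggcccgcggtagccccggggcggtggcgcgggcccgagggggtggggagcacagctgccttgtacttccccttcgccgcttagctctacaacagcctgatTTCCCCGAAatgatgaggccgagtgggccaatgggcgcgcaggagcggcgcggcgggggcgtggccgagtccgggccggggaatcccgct
Isg15, chr4:156200819-156201068, minus strand: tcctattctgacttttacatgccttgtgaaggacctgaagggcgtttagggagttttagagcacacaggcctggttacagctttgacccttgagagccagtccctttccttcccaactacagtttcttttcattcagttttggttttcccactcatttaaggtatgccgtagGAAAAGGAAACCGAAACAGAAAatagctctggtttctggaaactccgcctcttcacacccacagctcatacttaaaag
B2m, chr2:122147437-122147686, plus strand: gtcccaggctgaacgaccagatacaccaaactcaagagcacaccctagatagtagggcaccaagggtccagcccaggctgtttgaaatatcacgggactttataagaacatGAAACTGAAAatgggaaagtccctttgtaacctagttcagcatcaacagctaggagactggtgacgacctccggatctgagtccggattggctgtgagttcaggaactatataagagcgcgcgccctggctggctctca
Ifitm2, chr7:140955962-140956211, minus strand: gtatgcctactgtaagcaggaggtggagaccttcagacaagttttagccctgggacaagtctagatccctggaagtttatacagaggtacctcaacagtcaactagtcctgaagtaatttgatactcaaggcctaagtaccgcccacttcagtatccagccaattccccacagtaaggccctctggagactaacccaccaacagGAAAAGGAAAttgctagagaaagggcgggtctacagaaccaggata
In Irgm1, 2 overlapping matches begin at positions -30 and -24 from the start site. Isg15 has 3 overlapping matches that begin at -78, -72 and -66. In Bst2 the gamma-activated letters begin at -136 and run into 2 response element cores at -130 and -124. The match of B2m begins at -139, that of Irf1 at -90 and that of Ifitm2 at -46. Among members lower in the Esrrb step that had a promoter entry, 2 of 6 held the response element core, and among those not called 9 of 23 did. The 6 promoters shown were chosen among those with a match, while Oasl2, Psmb9, Tap1 and H2-K1 had a match to neither.

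Among the 6 transcription factors listed as members, Irf1 stood at the highest level. Irf1 (-1.70), Irf2 (-2.44) and Irf7 (-1.21) were lower between the ends, where 12.2% of all rows were. Of the 6, 0 were higher (3.81% of all rows). Irf1 (chromosome 11, mm10, 53770014 to 53778374, plus strand), which activates interferon and MHC class I genes, was at 84.2, 35.4, 25.2, 30.4 and 14.1 FPKM. Double-negative cells were highest and Zscan4-positive cells lowest, with differences of -1.23 in the Esrrb step, -0.48 in the Tbx3 step and -1.06 in the Zscan4 sort. Irf2, an antagonist of Irf1 at its target sites, was at 5.40, 3.62, 0.182, 0.190 and 0.139 FPKM. It was read in the first 2 fractions, those with fibroblast and T cell transcripts, and hardly elsewhere. The part of those transcripts in its level was not tested. Irf7, the factor that amplifies interferon alpha production, was at 1.78, 1.12, 0.199, 0.107 and 0.154 FPKM and had the same order of the first 3 fractions. Irf3, which is activated by nucleic acid sensors, was at 11.2 to 15.5 FPKM. Irf9 and Stat2 were at 6.62 to 10.2 and 5.92 to 10.5 FPKM, and Stat2 differed by 0.73 in the Zscan4 sort. Irf3, Irf9 and Stat2 were called in none of the 5 comparisons.

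Sensors of foreign nucleic acid, with Trim25 and Adar, did not move as a group. Of these 5 members, Zbp1 (-2.71) and Ifih1 (-1.23) were lower between the ends, where 12.2% of all rows were. The count of higher ones was 0 (3.81% of all rows). Zbp1 (chromosome 2, 173206612 to 173218923, minus strand), which binds nucleic acid in the Z form and can trigger necroptosis, was at 22.98, 4.61, 2.66, 5.40 and 0.889 FPKM. The step from double-negative to single-positive cells was -2.10, and that of the Zscan4 sort -1.76, the most negative member there. Ddx58, which encodes the RNA sensor RIG-I, ran the other way at 10.9, 19.1, 21.7, 17.1 and 12.5 FPKM. Its difference of 0.93 between the ends lay just under the call. Trim25, a ubiquitin ligase that acts on RIG-I, was at 29.3, 39.6, 49.2, 42.8 and 37.2 FPKM, also lowest in double-negative cells. Ifih1, which encodes the related sensor MDA5, was at 1.41, 0.887, 0.028, 0.032 and 0.069 FPKM. Adar, whose product edits double-stranded RNA and so hides cellular RNA from MDA5, was at 12.0 to 14.2 FPKM in all 5 fractions.

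Antiviral effectors were mostly low, apart from Bst2 and Samhd1. Of 6 compared, 4 were lower between the ends (12.2% of all rows) and 0 higher (3.81%). Oasl2 (chromosome 5, 114896936 to 114912234, plus strand), an oligoadenylate synthetase-like gene, was at 9.62, 1.35, 0.334, 2.00 and 0.417 FPKM, with -2.17 in the Esrrb step and -1.08 in the Zscan4 sort. It was also the only member called between the lines, at 1.17 higher in Zscan4-negative than in double-positive cells. Its neighbour Oasl1 was at 0.245 to 0.587 FPKM. Bst2 (chromosome 8, 71534255 to 71537456, minus strand), which encodes tetherin, a protein that holds budding virus at the cell surface, was at 255, 89.3, 72.1, 114 and 69.8 FPKM. Its difference was -1.50 in the Esrrb step and -0.70, not called, in the Zscan4 sort. Samhd1, a hydrolase of deoxynucleotides that limits retroviral reverse transcription, was at 48.1, 36.9, 17.1, 19.6 and 14.4 FPKM and was called lower in the Tbx3 step (-1.07). Ifi35 was at 11.9, 6.93, 5.35, 3.22 and 3.80 FPKM, with -1.02 between the ends. Xaf1, known to promote apoptosis, was at 6.74, 4.84, 4.46, 2.23 and 3.22 FPKM and was not called. The RNA-binding Ifit genes and Rsad2, which encodes viperin, are classical interferon targets and stayed under 2 FPKM. In double-negative cells Ifit2 was at 1.96, Ifit1 at 0.943, Ifit3 at 0.501 and Rsad2 at 0.373 FPKM. Ifit genes are similar in sequence and can share reads.

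Of 4 compared genes of ISG15 conjugation and ADP-ribosylation, 3 were lower between the ends, where 12.2% of all rows were. In each of the Esrrb step, the Tbx3 step and the Zscan4 sort 1 was lower, against 1.43%, 6.94% and 0.875% of all rows. Isg15 (chromosome 4, 156199424 to 156200818, minus strand), a ubiquitin-like protein that is attached to other proteins, was at 8.84, 4.88, 0.366, 1.02 and 0.259 FPKM. The Tbx3 step accounted for -2.10 and the Esrrb step for -0.74. Usp18, which removes Isg15 and damps the interferon receptor, was at 0.917, 0.503, 0.068, 0.027 and 0.063 FPKM. Parp9 and Dtx3l encode a mono-ADP-ribosyltransferase and a ubiquitin ligase that form a complex. Parp9 was at 21.4, 9.65, 6.43, 7.36 and 3.05 FPKM, with -1.07 in the Esrrb step and -1.04 in the Zscan4 sort. Dtx3l was at 18.9, 9.73, 6.22, 6.65 and 3.07 FPKM, with -0.89 and -0.91 in the same comparisons, under the call. These genes lie on opposite strands and overlap at their starts on chromosome 16 (Dtx3l at 35926511 to 35939151, Parp9 at 35938470 to 35972605). Whether reads were counted by strand is not given in the sources used here, so reads of the overlap cannot be told apart. Parp14, their neighbour, was at 6.24, 3.55, 2.82, 2.76 and 1.82 FPKM and was not called.

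The 3 Ifitm genes stood at 161 to 736 FPKM in all fractions and none was called. They encode small membrane proteins that hinder virus entry and are expressed by pluripotent and germ cells without interferon. Ifitm1 was at 581, 721, 736, 489 and 431 FPKM. Ifitm2 was at 426, 505, 496, 416 and 420 FPKM, and Ifitm3 at 248, 190, 166, 161 and 176 FPKM. Together with Irf7 they lie on chromosome 7, Ifitm1 at 140967221 to 140969825. Ifitm1 and Ifitm2 were lower in double-negative than in single-positive and double-positive cells. In contrast Irgm1 (chromosome 11, 48861968 to 48871683, minus strand), an immunity-related GTPase that acts on vacuoles holding pathogens, was at 25.9, 10.7, 2.23, 4.30 and 1.23 FPKM. It was called lower in the Esrrb step (-1.20), the Tbx3 step (-1.86) and the Zscan4 sort (-1.25), which held for no other member.

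**Figure D3:**
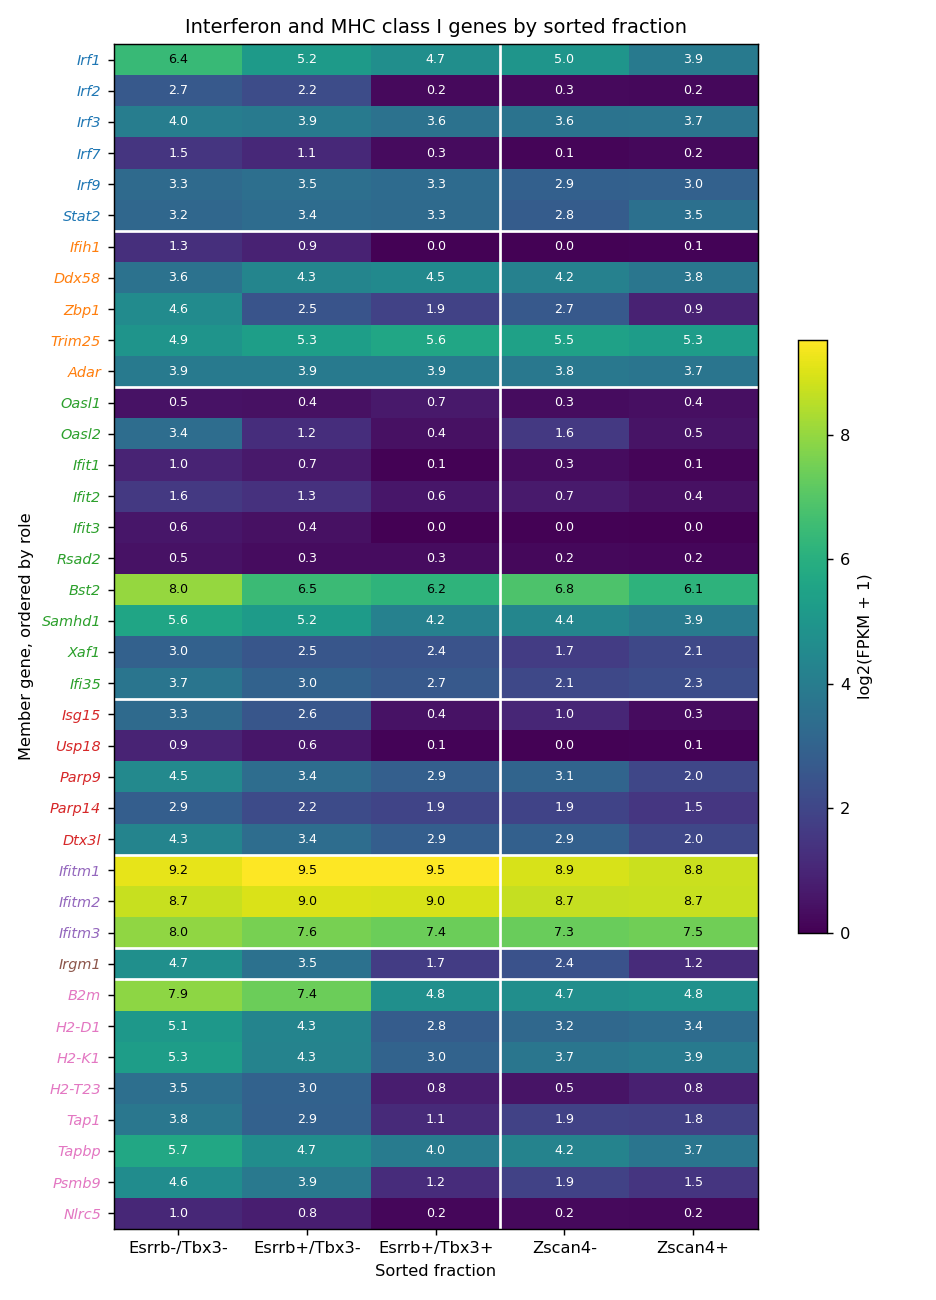
log2(FPKM + 1) of the 38 members (rows, grouped and coloured by role) in the 5 sorted fractions (columns), with the value printed in each cell. The Ifitm rows are bright throughout, B2m is bright in the 2 left columns and darker in the other 3, and Zbp1, Oasl2 and Irgm1 are darkest in double-positive or Zscan4-positive cells.

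MHC class I genes and their helpers held the largest differences of the Tbx3 step. B2m (chromosome 2, 122147686 to 122153083, plus strand), the invariant light chain of all class I molecules, was at 240, 166, 26.1, 25.4 and 27.0 FPKM. It was high in 2 fractions and almost equal in the other 3, with -0.53 in the Esrrb step and -2.62 in the Tbx3 step. The classical heavy chain genes followed at lower levels: H2-K1 at 38.1, 18.0, 7.22, 12.3 and 14.3 FPKM and H2-D1 at 32.9, 18.4, 5.81, 8.21 and 9.33 FPKM. Both had their lowest level in double-positive cells. H2-T23, a nonclassical heavy chain gene whose product is read by natural killer cell receptors, was at 10.1, 6.97, 0.714, 0.420 and 0.778 FPKM. Class I heavy chain genes are alike in sequence, and how reads were divided between them is uncertain. The deposited spans of some genes are wider than the annotated gene. That of B2m runs from 122120108 to 122186189 on chromosome 2. That of H2-D1 runs from 35241746 to 35443773 on chromosome 17, while the annotated gene lies at 35262730 to 35267499. The span of H2-T23 runs from 35994504 to 36121444. Parp9 and Dtx3l were given the same span but different levels, so a span need not be the region over which a level was counted.

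Genes of peptide supply were also highest in double-negative and next highest in single-positive cells, but differed in which fraction was lowest. Psmb9 (chromosome 17, 34181987 to 34187764, minus strand), a catalytic subunit of the immunoproteasome, was at 23.97, 13.4, 1.31, 2.71 and 1.79 FPKM. Its difference of -2.65 was the most negative of any member in the Tbx3 step, as was that of -3.44 between the ends. Tap1, a subunit of the peptide transporter, starts next to Psmb9 on the plus strand and was at 12.5, 6.68, 1.18, 2.67 and 2.47 FPKM. Tapbp, which encodes the loading chaperone tapasin, was at 51.0, 24.3, 14.7, 18.0 and 12.2 FPKM and was lower in the Esrrb step (-1.04) but not called in the Tbx3 step (-0.68). Nlrc5, the transactivator of class I genes, was at 1.07, 0.736, 0.114, 0.167 and 0.153 FPKM. Of these 8 members 2 were lower in the Esrrb step (1.43% of all rows), 6 in the Tbx3 step (6.94%) and 7 between the ends (12.2%). In the Zscan4 sort 0 of the 8 were called, where 0.875% of all rows were lower and 3.46% higher, and their median difference was 0.03. Fibroblast and T cell transcripts, at 1380 and 440 FPKM in single-positive against 30.4 and 41.2 FPKM in double-positive cells, moved with the Tbx3 step of this group, and their part in it was not tested.

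Dividing the single-positive by the double-negative FPKM places members beside those transcripts. Over the 15 fibroblast and T cell markers with at least 5 FPKM in double-negative cells it ran from 0.677 to 0.884, with a median of 0.714. The upper end was set by Lck, which was also at 9.93 to 20.9 FPKM in double-positive and both Zscan4 fractions. The next highest marker was Cd3d at 0.740, and the members Ifit2 (0.780), Samhd1 (0.768) and Ifitm3 (0.766) lay between Cd3d and Lck. Among the 33 compared members 7 had a ratio in the range of 0.677 to 0.884, among them B2m at 0.693, H2-T23 at 0.687 and Nlrc5 at 0.691. A lower ratio was found for 18, down to 0.141 for Oasl2 and 0.201 for Zbp1, and a higher one for 8, up to 1.75 for Ddx58. Of all 13522 compared rows above 0 in double-negative cells, 11.8% lay below the range, 21.9% in it and 66.2% above it. The 18 members below the range included Irf2 at 0.670, close to its edge. All 8 members lower in the Esrrb step lie below it by construction, since 2-fold implies a smaller ratio.

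The Zscan4 sort shows the same genes in columns that hold few fibroblast or T cell transcripts. Those sums were 23.9 and 27.3 FPKM in Zscan4-negative and 33.1 and 30.1 FPKM in Zscan4-positive cells. With the Zscan4 reporter 5 members were lower: Zbp1 (-1.76), Irgm1 (-1.25), Oasl2 (-1.08), Irf1 (-1.06) and Parp9 (-1.04). With a pseudocount of 0.1 FPKM, Isg15 (-1.64) and Dtx3l (-1.09) joined them. These 5 were all among the 8 that were lower in the Esrrb step, which shares no fraction with this sort, and make up 62.5% of those 8. Over all compared rows 46 were lower in both, which is 23.6% of the 195 lower in the Esrrb step and 38.7% of the 119 lower in the Zscan4 sort. The other 3 of the 8, Bst2, Tapbp and H2-K1, differed by -0.70, -0.53 and 0.20 in the Zscan4 sort. Zscan4-positive cells had the lowest level of the 5 fractions for 14 of the 33 compared members, against 26.6% of all compared rows. By ratio to the markers, the 18 members below their range had a median of -0.47 in the Zscan4 sort, the 7 within it 0.08 and the 8 above it -0.05. The 18 include all 5 members called lower in this sort. This follows from their place among the 8, which lie below the range by construction, and adds nothing to the overlap. The median of the 18 rests in part on those 5. Irf2, Irf7 and Ifih1, also among the 18, hardly differed there. Medians of all compared rows in these classes are not given, and the part of fibroblast and T cell transcripts was not tested.

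**Figure D4:**
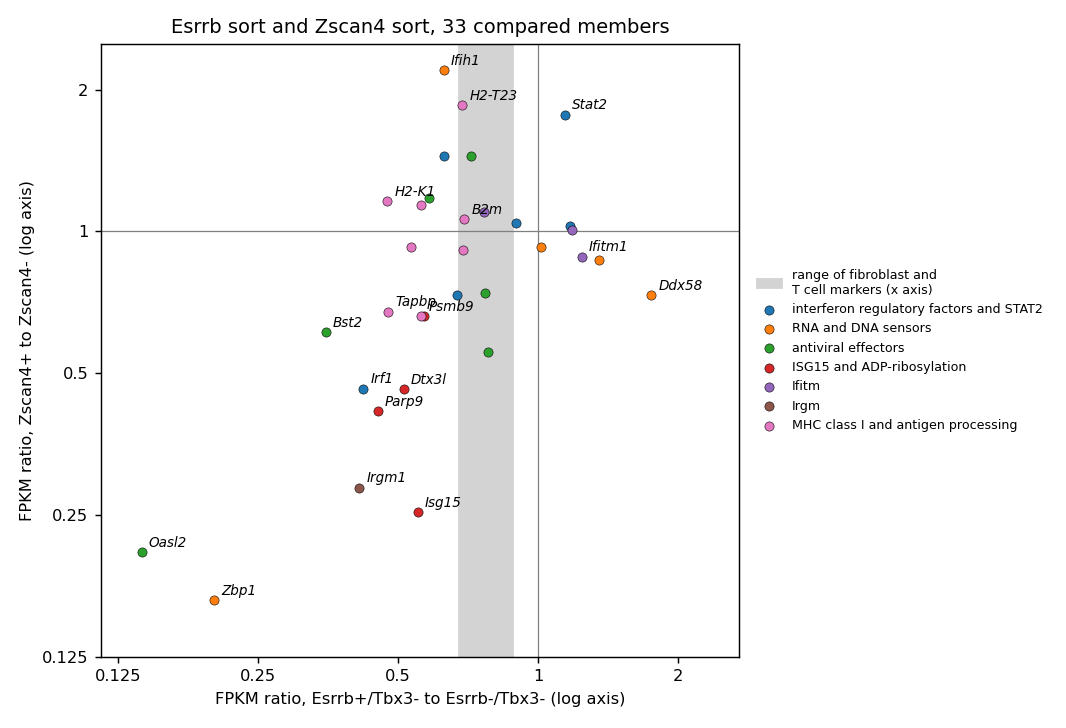
FPKM ratio of single-positive to double-negative cells (x, log axis) against that of Zscan4-positive to Zscan4-negative cells (y, log axis) for the 33 compared members, coloured by role, with the x range of the fibroblast and T cell markers in grey. Oasl2 and Zbp1 lie far to the lower left, Irgm1, Parp9 and Irf1 follow, and B2m and H2-T23 lie in the grey band at a y value of 1.06 and 1.85.

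Double-positive and Zscan4-negative cells, the fractions of the 2 lines with few fibroblast and T cell transcripts, were close for most members. The same holds for rows in general, since 0.816% of all compared rows were higher and 0.743% lower between these fractions. Besides Oasl2 the largest positive differences in Zscan4-negative cells were those of Zbp1 (0.81), Tap1 (0.75), Irgm1 (0.71), H2-K1 (0.70), Psmb9 (0.69), Bst2 (0.66) and Isg15 (0.57), none of them called. Xaf1 (-0.76), Ifitm1 (-0.59) and Ifi35 (-0.59) ran the other way. The lines differ in reporter and in the way cells were gated, and these cannot be told apart.

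Other genes of the pathway came from 6 lists with 108 genes that have rows, of which 74 rows were compared. These lists were also chosen with earlier results of these data known. Of these 38 were lower and 2 higher between the ends, against 12.2% and 3.81% of all rows. In the Zscan4 sort 6 were lower and 3 higher, against 0.875% and 3.46% of all rows. The sums of fibroblast and T cell markers went from 1950 and 604 to 30.4 and 41.2 FPKM between the same ends, and Jak2 (0.679), Ifngr1 (0.717) and Socs1 (0.738) had single-positive to double-negative ratios within the range of those markers. The part of those transcripts in these counts was not tested. None of 18 interferon genes reached 1 FPKM in any fraction, and 12 of them, Ifnb1 included, were listed at 0 in all 5. The highest was Ifnk at 0.851 FPKM in Zscan4-positive cells. Among 9 receptors and kinases 4 were lower between the ends and 0 higher, namely Il10rb and, at at least 5 FPKM, the interferon gamma receptor gene Ifngr1 (23.3 against 2.49 FPKM in double-negative against double-positive cells), Jak2 (7.41 against 1.65) and Jak1 (22.8 against 10.6). The alpha receptor gene Ifnar1 was at 13.5 to 20.9 FPKM throughout. Of 11 compared transcription factors and inhibitors 3 were lower and 0 higher, among them the feedback inhibitor gene Socs1 (35.7 against 4.43 FPKM) and Irf5 (5.49 against 0.741). Of 11 compared sensing genes 3 were lower, among them Ifi204 (6.19 against 0.0733 FPKM) and Tmem173, which encodes STING (7.65 against 0.506). Mavs, the adaptor of RIG-I and MDA5, was at 8.49 and 13.4 FPKM.

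Of 29 compared rows of other interferon targets 19 were lower and 2 higher between the ends, where 12.2% and 3.81% of all rows were. In the Zscan4 sort 4 were lower and 3 higher, against 0.875% and 3.46% of all rows. The 3 higher rows, named after their values were seen, were Oas1a and 2 rows of Sp110 (2.36 and 1.06). Between the ends the most negative were Ifi27 (-4.18), Gbp2 (-3.99), Gbp5 (-3.63) and Lgals3bp (-3.37). Gbp2, a guanylate-binding protein gene, was at 29.1, 4.39, 0.891, 7.15 and 1.09 FPKM in the order used above. Ifi27 instead was at 24.5, 16.9, 0.409, 0.642 and 0.489 FPKM, with a ratio of 0.691 in the Esrrb step, within the marker range, and that of Lgals3bp was 0.654, just below it. The 2 higher targets, named after their values were seen, were the oligoadenylate synthetase genes Oas1a and Oas1g. Oas1a was at 1.14, 4.57, 8.01, 2.96 and 7.88 FPKM, the reverse of Oasl2 in both the Esrrb step (1.38) and the Zscan4 sort (1.16). Near-identical Oas1 genes can share reads. Of 14 other compared genes of class I presentation 9 were lower and 0 higher between the ends, led by Psmb8 (-4.68), Tap2 (-4.06), Erap1 (-2.71) and Psmb10 (-2.71). The general chaperone genes Calr, Canx and Pdia3, which also serve class I folding, differed by -0.17, 0.22 and -0.37 and were not called. In the Zscan4 sort Psmb8 and Psmb10 were lower, at 1.91 against 5.03 and 9.90 against 25.4 FPKM.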

How the data were processed

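Total RNA of sorted E14Tg2a.4 mouse ES cells was sequenced in 10 libraries of 5 fractions. The deposited table holds FPKM that the authors computed, with a single column per fraction, as its header shows. Tools named in the submitters' processing notes are TopHat2 2.0.14 and Cuffdiff 2.2.1 with Cufflinks, after bcl2fastq 1.8.4, and the build is mm10. How the libraries of a fraction were merged or normalized is not given in the sources used here. FPKM hides depth, and low values showed no step common to pairs of columns from which reads could be recovered, since at most 3.42% of low rows shared a ratio bin.

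Differences of log2(FPKM + 1) were computed over rows reaching 1 FPKM in some fraction and called at 2-fold. This replaces any count test, since no library has values of its own. Alternatives covered the pseudocount, the filter, 2 scalings, summed rows and the ratio of the member rule. The steps were tested on simulated data. Members are described in full where they met the member rule or were called with at least 5 FPKM. From the other pathway lists up to 4 called genes with at least 5 FPKM and the largest difference are named. Members and lists, including 8 lists of cell type markers, were chosen with earlier results of these data known. Gene coordinates are from GENCODE M21 on GRCm38, the assembly of mm10, and all 38 member rows overlap them. For 32 of 33 members with a RefSeq promoter, the last 30 bases of the window were found in an annotated transcript. Python 3.11.15, pandas 2.3.3, numpy 2.4.6 and matplotlib 3.10.9 were used.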

Additional observations from a re-analysis of the deposited data

How the results depend on the processing

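Of 165 differences (33 members in 5 comparisons), 44 were called. With a pseudocount of 0.1 FPKM all 44 were still called and 12 others joined them, with equal FPKM totals 2 joined, and with median-ratio scaling 1 was lost and 1 joined. No called difference changed sign. Among those not called, 11 changed sign with equal totals and 1 with median-ratio scaling. Summing rows of a symbol changed none, since no member has more than 1 row. Equal totals shifted the median of all rows between the ends by -0.10. With the smaller pseudocount 15 members in place of 10 were lower in the Tbx3 step, 23 in place of 20 between the ends and 7 in place of 5 in the Zscan4 sort, while the 8 of the Esrrb step held under all 6 alternatives. Under median-ratio scaling 1 member, Ddx58, was higher between the ends in place of 0, and with the smaller pseudocount 3 members in place of 1 were higher in Zscan4-negative than in double-positive cells. The member rule was met by 14 members at a ratio of 0.25, by 2 at 0.05 and by 3 with at least 1 FPKM in double-negative cells, in place of 5. No paired analysis was possible because the columns carry no replicate numbers, and for the same reason no library could be left out. Depth is unknown, so levels under about 1 FPKM have no stated precision.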
